A study of Drosophila melanogaster with 3 samples.

Results

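Many fruit fly genes can be transcribed from several promoters, and 461 of the 13945 protein-coding genes on the 6 chromosome arms have transcription start sites in at least 3 separate places. The start sites of a gene were merged into 1 cluster wherever they lay closer than 1000 bp, and a gene was taken when 3 or more clusters were left. This gave 1708 start site clusters of 16399 in all protein-coding genes. A cluster is called bound when the summit of a reproducible peak lay within 500 bp of any start site in it, and clusters are numbered 5′ to 3′ along the gene, so that cluster 1 is the most upstream promoter. The choice of genes rested on the dm6 gene models alone and not on the peaks. Of the 461 genes, 284 had 3 clusters, 106 had 4, 34 had 5, 17 had 6 and 20 had 7 or more, up to 16 in Svil.

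The peaks come from chromatin immunoprecipitation with sequencing of E(bx), also called NURF301, in whole Drosophila melanogaster embryos of both sexes collected from 0 to 16 h. The flies were a transgenic line with green fluorescent protein fused to the C terminus of E(bx); the labels' description names an antibody to that protein, whereas their antibody field reads E(bx). The 3 libraries are biological replicates from separate biosamples and form 1 group, with no other group to set beside it. Peaks were called against a control that was not analysed here, so places that precipitate with any antibody cannot be set apart. In whole embryos, binding in fewer cells and weaker binding in each cell cannot be told apart. Sequencing depth is unknown, because peak lists carry no read totals; the intervals beside shares reflect counting error alone.

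E(bx) is the largest subunit of NURF, a remodelling complex that slides nucleosomes with the ATPase Iswi as its motor and that is known for keeping promoters open to transcription. Genes with alternative promoters use them in different tissues or at different stages, and the transcripts often differ in their 5′ exons. In flies, promoters of broadly used genes often carry the DNA replication-related element (DRE) or Motif 1, while promoters of developmentally regulated genes often carry GAGA elements, the sites of GAGA factor, a protein that binds NURF. An earlier promoter can also sit back to back with the start of a neighbouring gene, and E(bx) at such a place cannot be assigned to 1 of the pair of genes.

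The sequences below show the stretch from 100 bases before to 10 bases from the start site on, 5′ to 3′ on the gene's strand, credited to RefSeq's Release 6 (dm6) genome. The capitals mark matches on either strand to 3 motifs, TATCGATA for DRE, GGTCACAC for the Motif 1 core and GAGAGAG for the GAGA element. The first set holds genes with exactly 1 bound cluster, each with its bound cluster and the nearest cluster that was not bound. In loco, a regulator of G protein signalling, and cindr, an adaptor protein that links membranes to actin, the bound cluster was the first; in SCCRO4 and jigr1 it was a later one.
loco cluster 1, bound: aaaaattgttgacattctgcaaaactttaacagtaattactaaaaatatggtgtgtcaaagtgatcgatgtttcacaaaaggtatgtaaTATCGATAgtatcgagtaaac
loco cluster 2, not bound: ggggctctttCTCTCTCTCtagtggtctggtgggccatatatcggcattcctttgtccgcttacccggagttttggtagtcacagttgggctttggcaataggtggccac
cindr cluster 1, bound: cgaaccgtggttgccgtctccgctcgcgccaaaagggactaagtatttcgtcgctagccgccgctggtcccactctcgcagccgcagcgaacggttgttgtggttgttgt
cindr cluster 2, not bound: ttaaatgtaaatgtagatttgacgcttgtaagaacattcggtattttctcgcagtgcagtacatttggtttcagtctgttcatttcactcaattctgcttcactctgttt
SCCRO4 cluster 2, bound: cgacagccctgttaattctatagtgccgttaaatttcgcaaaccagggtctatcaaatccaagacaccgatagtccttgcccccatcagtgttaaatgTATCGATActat
SCCRO4 cluster 1, not bound: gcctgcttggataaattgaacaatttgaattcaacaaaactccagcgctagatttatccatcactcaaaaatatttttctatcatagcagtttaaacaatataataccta
jigr1 cluster 3, bound: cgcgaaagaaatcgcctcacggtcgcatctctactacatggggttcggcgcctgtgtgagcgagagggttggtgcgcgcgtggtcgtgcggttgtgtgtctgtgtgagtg
jigr1 cluster 2, not bound: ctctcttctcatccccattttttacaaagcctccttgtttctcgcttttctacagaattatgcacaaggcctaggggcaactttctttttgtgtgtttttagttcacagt
The loco windows are chr3R:22639378-22639487 for cluster 1, before the gene and outside any annotated exon, and chr3R:22636447-22636556 for cluster 2, inside a loco intron, both on the minus strand. Those of cindr are chr3R:30808517-30808626, between genes, and chr3R:30817514-30817623, in a cindr intron, on the plus strand. The SCCRO4 windows are chr3L:20302331-20302440 in an intron of SCCRO4 and chr3L:20299310-20299419 in an intron of Pex23, on the plus strand. For jigr1 they are chr3R:25647146-25647255 and chr3R:25639693-25639802, both in jigr1 introns on the plus strand.

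The second set shows the motifs that bound clusters of either kind carried. Its genes were chosen after the motif shares were seen, as the strongest bound clusters with the motif in this window, no other gene's start within 1000 bp and no exon before the start. Wdr62, a spindle and centrosome protein, bun, a TSC-22 family transcription regulator, and AMPdeam, the enzyme AMP deaminase, carried the Motif 1 core at their first cluster. The bromodomain protein gene fs(1)h and Ten-a, which encodes a teneurin of synaptic partner cells, carried a GAGA element at cluster 3.
Wdr62 cluster 1, bound: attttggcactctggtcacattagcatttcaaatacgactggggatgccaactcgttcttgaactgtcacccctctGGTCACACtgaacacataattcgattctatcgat
bun cluster 1, bound: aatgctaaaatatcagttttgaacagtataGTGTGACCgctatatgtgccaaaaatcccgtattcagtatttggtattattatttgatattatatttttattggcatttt
AMPdeam cluster 1, bound: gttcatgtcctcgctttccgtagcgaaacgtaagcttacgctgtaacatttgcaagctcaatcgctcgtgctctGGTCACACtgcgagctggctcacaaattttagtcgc
fs(1)h cluster 3, bound: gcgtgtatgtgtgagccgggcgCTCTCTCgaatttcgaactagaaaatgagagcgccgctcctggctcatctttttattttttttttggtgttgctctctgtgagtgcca
Ten-a cluster 3, bound: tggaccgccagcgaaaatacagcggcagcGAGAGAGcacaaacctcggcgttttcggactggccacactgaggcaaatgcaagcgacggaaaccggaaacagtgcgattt
The windows of Wdr62 (chr2L:1884522-1884631, plus strand), bun (chr2L:12546602-12546711, minus strand) and AMPdeam (chrX:13845857-13845966, minus strand) lie between genes. Those of fs(1)h (chrX:8056692-8056801, minus strand) and Ten-a (chrX:12203698-12203807, plus strand) lie in introns of these genes.

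Clusters of multi-promoter genes were bound less often than those of other genes, and by position the first cluster was bound most often. Of the 1708 clusters 535 were bound, or 31.3% (95% Wilson interval 29.2 to 33.6), against 6856 of 14691 clusters in genes with 1 or 2 clusters, or 46.7%; over all 16399 clusters the share was 45.1%. With the best 9708 peaks of each library in place of the reproducible set, the share in multi-promoter genes was 30.4, 31.3 and 29.4% in libraries 1, 2 and 3 (mean 30.4% ± 0.908, SD, n = 3), against 46.6, 46.7 and 45.4% in the other genes. The difference, 15.3 points lower in multi-promoter genes, was lower by 16.2, 15.4 and 16.0 points in the libraries, many times their spread. An exact two-sided sign-flip permutation test over 3 libraries gave p = 0.25, the smallest it can give. The same test gave the same p for 3 kinds of difference below, between positions (first and later, inner and last), between clusters with and without a neighbouring gene, and between multi-promoter and other genes within each of these classes. Differences by transcript number, distance and chromosome, and between first and later clusters that have a neighbour, were not tested. Positions midway between neighbouring clusters and at least 1000 bp from any start, chosen as a comparison once the data had been seen, had a reproducible summit within 500 bp at 47 of 889 places, or 5.29%.

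The first cluster was bound in 251 of 461 genes, or 54.4% (interval 49.9 to 58.9), and by library in 54.9, 55.5 and 52.5%. Later clusters were bound in 284 of 1247 cases, or 22.8% (20.5 to 25.2), and by library in 21.3, 22.3 and 20.9%. No library's first-cluster share came near any later-cluster share, and the difference of 31.7 points was 33.5, 33.2 and 31.6 points in the libraries (mean 32.8 ± 1.07, SD, n = 3). Inner clusters were bound in 203 of 786 cases (25.8%) and the last cluster in 81 of 461 (17.6%), a difference of 8.26 points that held in each library (6.31, 5.77 and 6.71 points). By number along the gene, 54.4% of clusters 1, 28.4% of clusters 2, 18.9% of clusters 3 and 19.2% of clusters 4 were bound, so that the drop lay between the first 3 positions. Among the 1207 genes with 2 clusters the first was bound in 52.3% and the other in 24.2%, shares near those of multi-promoter genes.

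**Figure D1:**
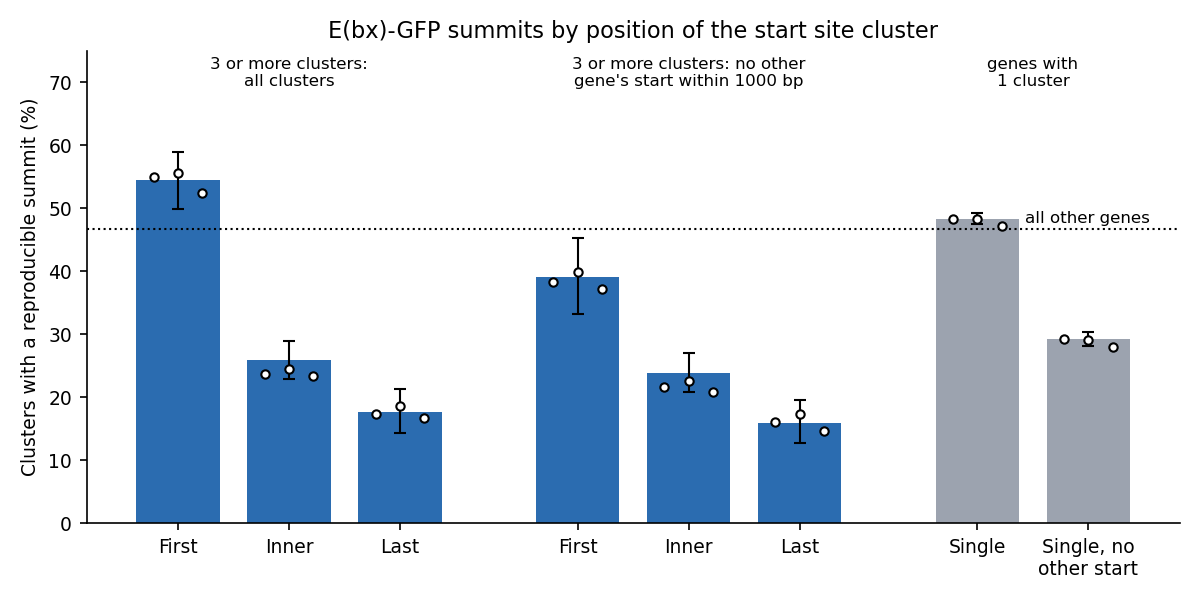
Share of start site clusters with a reproducible E(bx)-GFP summit within 500 bp (bars, %, with 95% Wilson intervals), and the share with each library's own 9708 best peaks (open circles, libraries 1 to 3 from left to right). Blue bars are genes with 3 or more clusters, grey bars genes with 1; the dotted line marks the 46.7% of genes with 1 or 2 clusters. The first cluster stands at 54.4% above inner (25.8%) and last clusters (17.6%), and stays highest at 39.1% where no other gene starts within 1000 bp.

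A neighbouring gene's start moved with these shares. Neighbours were genes of any kind on either strand, 18164 in all, and not protein-coding genes alone. Another gene started within 1000 bp of 213 of the 461 first clusters but of only 118 of the 1247 later ones. Clusters with such a neighbour were bound in 203 of 331 cases (61.3%), against 332 of 1377 without one (24.1%). The gap to other genes was smaller within each class, at 61.3% against 68.5% of other genes' clusters with a neighbour (-7.18 points) and 24.1% against 28.9% without one (-4.75 points). Without a neighbour, the first cluster was bound in 97 of 248 genes (39.1%, 33.2 to 45.3) and later clusters in 235 of 1129 cases (20.8%, 18.5 to 23.3). These later clusters came from 451 genes, so the first and later clusters compared here were not all from the same genes. The difference of 18.3 points without a neighbour was smaller than the 31.7 points overall by more than 1.5 times, and it measured 18.7, 19.4 and 18.6 points in the libraries. With a neighbour, the first cluster was bound in 154 of 213 genes (72.3%) and later ones in 49 of 118 cases (41.5%). Single-cluster genes had 69.4% bound with a neighbour and 29.3% without, so a first cluster without a neighbour was bound 9.83 points more often than the lone promoter of a single-cluster gene (9.14, 10.8 and 9.20 points in the libraries). Among bound clusters, the strongest summit lay nearer to another gene's start than to any start of its own cluster at 55 of 251 first clusters and 14 of 284 later ones.

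Clusters at which more annotated transcripts begin were bound more often. The share was 22.2% of 891 clusters with 1 transcript, 37.3% of 386 with 2, 36.6% of 194 with 3 and 51.5% of 237 with 4 or more. Within position the same order appeared: first clusters were bound in 63.7% of cases with 2 or more transcripts and 41.4% with 1, later clusters in 30.2% and 17%. Distance along the gene showed little of this kind. Later clusters 20 kb or more from the first were bound in 24.2% of 409 cases, those 5 to 20 kb away in 22.8% of 500 and those under 5 kb away in 21.0% of 338, and the intervals of the 3 shares overlap. On chromosome 4, a small and largely heterochromatic chromosome, 8 of 25 clusters of multi-promoter genes were bound (32.0%, 17.2 to 51.6), against 58 of 84 clusters of other genes (69.0%, 58.5 to 77.9).

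Taken gene by gene, many multi-promoter genes had E(bx) at some of their promoters but not at others. Of the 461 genes, 311 (67.5%) had some clusters bound and some not, 135 (29.3%) had none bound and 15 (3.25%) had all bound. The mixed genes were 204 of 454 (44.9%) when clusters near another gene were left out, and 216 of 461 (46.9%) with the 4854 strongest peaks alone. Both settings lower this count in part by construction. A gene left with 1 cluster cannot be mixed, and a shorter peak list leaves fewer clusters bound. Exactly 1 cluster was bound in 169 genes, 2 in 115, 3 in 32 and 4 in 10, and no gene had more than 4. The share of clusters bound was 35.0, 27.6, 31.2, 23.5 and 26.9% in genes with 3, 4, 5, 6 and 7 or more clusters, and the intervals of these shares overlap. Among the 20 genes with 7 or more clusters, 3 had 4 bound, 5 had 3, 5 had 2, 6 had 1 and 1 had none. Of the 135 genes with none bound, 98 had a summit of the relaxed pooled list at a cluster. By its deposited name that list holds background as well as peaks. It had a summit at 59.2% of all clusters of multi-promoter genes and at 59.0% of those of other genes, so these summits need not be binding. A reproducible summit lay between the gene's ends, away from its own clusters, in 60 of the 135. This count includes summits near the start of another gene, as were both summits in the body of Syp. No share over other genes stands beside it, so nothing about these genes follows from it.

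**Figure D2:**
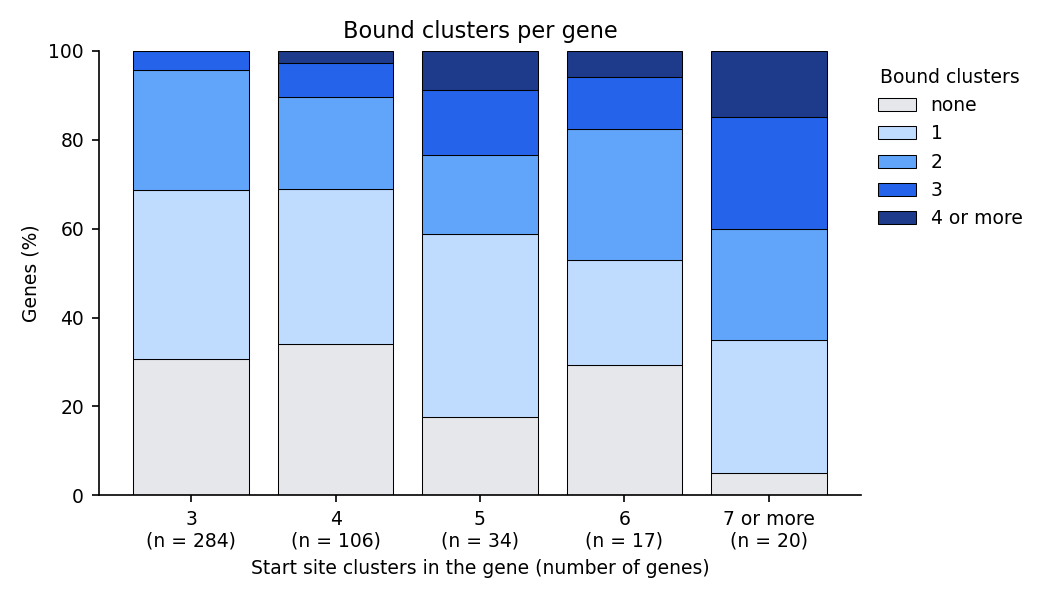
Share of genes (%, y axis) by how many of their clusters were bound (shades), for genes with 3, 4, 5, 6 and 7 or more start site clusters (x axis, with the number of genes). Among the 284 genes with 3 clusters, 87 had none bound, 108 had 1, 77 had 2 and 12 had all 3.

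Where only 1 cluster was bound, it was the first in 112 of 169 genes (66.3%, 58.9 to 73.0), an inner one in 42 and the last in 15. First clusters make up 27.6% of the 612 clusters of these genes. By library the share was 68.2, 68.4 and 65.2%, each over that library's own genes with 1 bound cluster. This share depended on neighbouring genes: another gene started within 1000 bp of 69 of those 112 first clusters and of 10 of the 57 later ones. When every cluster with a neighbour was left out, 48 of 153 genes with 1 bound cluster had it at their first (31.4%), where first clusters make up 18.2% of the 478 clusters left. Among the 87 of these genes whose first cluster was still counted, it was the only bound one in 48 (55.2%), where first clusters make up 28.2%.

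The 6 genes with the strongest lone first cluster show how sharp the contrast within a gene can be. The peak at cluster 1 of anne had a signal value, the authors' own score on a scale that is not stated, of 3265 in the pooled reads and 1338, 1319 and 570 in libraries 1, 2 and 3, while its cluster 3 had 76.5 in the relaxed pooled list and cluster 2 had no peak at all. In cindr the first cluster had 2301 (729, 963 and 678 in the libraries), against 50.4 and 82.9 at clusters 2 and 3. In loco it had 2086 (627, 798 and 779), against 49.4, 66.4 and 50.3 at clusters 2, 3 and 4. In each library the value of the first promoter was far above that of every later promoter that had a peak. The pattern was the same in DAAM, a formin that builds actin filaments (2078), Hipk, a homeodomain-interacting protein kinase (1975), and cnn, the centrosome protein centrosomin (1917). Of the 6, cindr alone had no other gene's start within 1000 bp of the bound cluster.

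In another 5 genes the strong lone cluster was a later one, and the upstream promoter had little or nothing. SCCRO4 had 1715 at cluster 2 (539, 579 and 634 in the libraries), no peak at cluster 1 and 32.5 at cluster 3. Cluster 3 of jigr1 had 1453 (402, 512 and 587), against 86.0 at cluster 1, where libraries 1 and 2 had no peak. The other 3 were CG31522 (1269 at cluster 2), CG1677 (1237 at cluster 2) and chb, a microtubule plus-end protein (1259 at cluster 2). No other gene started within 1000 bp of the bound cluster in chb, and one did in the other 4. All 11 of these clusters were chosen for their values, which are therefore a description.

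Several promoters were bound in 157 genes, and the first cluster was among the bound ones in 139 of them. In whole embryos it cannot be told whether these promoters were bound in the same cells or at the same stage. The strongest cluster was the first in 99 of the 139 (71.2%, 63.2 to 78.1). Signal values at bound first clusters had a median of 793 (quartiles 426 and 1181), against 280 (211 and 615) at bound later clusters and 821 (510 and 1208) at the bound clusters of other genes. The ratio of the medians, first over later, was 2.83 in the reproducible set and 3.05, 2.66 and 2.04 in the libraries (mean 2.58 ± 0.514, SD, n = 3). Without clusters near another gene it was 2.66, and 2.82, 2.47 and 1.89 in the libraries. Within a gene, the strongest bound cluster had a median of 2.35 times the signal of the next (quartiles 1.71 and 4.13, highest 15.4).

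Tm1, which encodes tropomyosin and makes muscle and cytoskeletal forms of it from different promoters, had 4 of 5 clusters bound. Cluster 4 had 2683 (809, 1095 and 818 in the libraries), cluster 3 had 2084 (664, 836 and 591), cluster 5 had 653 (166, 258 and 214) and cluster 1 had 601 (216, 248 and 234). Its cluster 2, at which 11 annotated transcripts begin, had only 121 and was not bound, so the promoter with most transcripts was the one without a reproducible peak. In mtd, of the OXR family of oxidation resistance genes, clusters 4, 5 and 7 of 9 were bound, with 1881, 1066 and 383, and the first had 135 and was not. SNF4Agamma, the gamma subunit of the AMP-activated kinase, had 1552 at cluster 3 (486, 507 and 457), 769 at cluster 1, and 213 and 157 at clusters 5 and 6. Tlk, a chromatin kinase, had 1530 at cluster 1 and 412, 258 and 417 at clusters 5, 7 and 8. Clusters 1 and 5 of Tm1 and cluster 1 of Tlk had another gene's start within 1000 bp.

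The gene with most promoters was selective. Svil, which encodes a villin-like actin-binding protein and spans chr3L:2377655-2499226, had a peak of 1427 at cluster 1 (414, 566 and 464 in the libraries) and of 1161 at cluster 14 (286, 350 and 526), of which cluster 1 had another gene's start 99 bp away, and no reproducible peak at the 14 others. Libraries 1 and 2 ranked cluster 1 higher and library 3 ranked cluster 14 higher, so the leading promoter did not repeat. At the clusters in between, the relaxed list held values of 42.3 to 127 or none. Other genes rich in promoters had few bound: 1 of 9 in CAP, an adaptor of the vinexin family, 1 of 8 in Sarm, a TIR-domain protein, 1 of 8 in the actin-bundling gene f and 2 of 8 in dnc, the cyclic AMP phosphodiesterase. Their strongest peaks were 164, 167, 354 and 280. Only that of Sarm lay at a first cluster, where the median of bound clusters was 793. Those of CAP, f and dnc lay at later clusters, where the median of bound clusters was 280. The peak of CAP was below that median, that of f above it and that of dnc level with it. The peak of Sarm was among the best peaks of 1 library only.

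**Figure D3:**
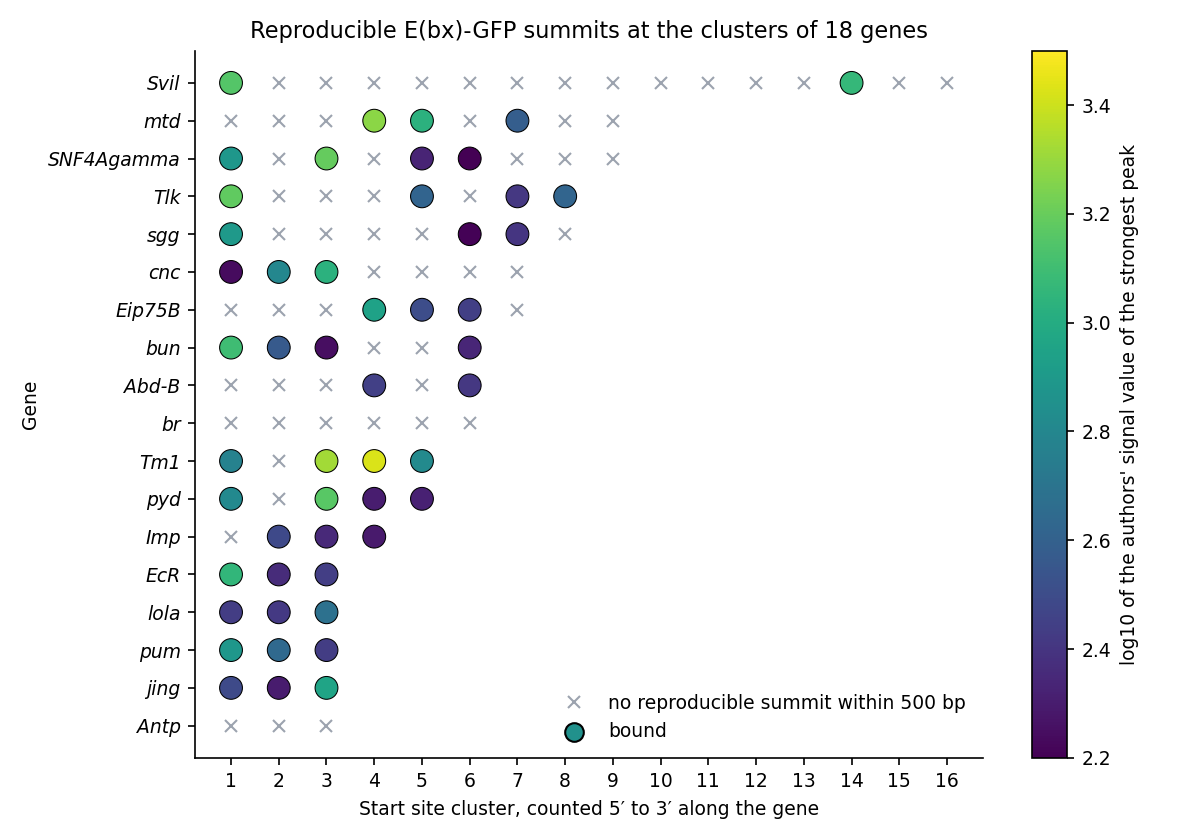
Each row is 1 of 18 genes and each position along it a start site cluster, numbered 5′ to 3′ (x axis). Filled circles are bound clusters, coloured by the log10 of the authors' signal value of the strongest reproducible peak within 500 bp; crosses are clusters without one. Svil is bound at 2 of 16 clusters, Tm1 at 4 of 5, EcR, lola, pum and jing at all 3, and br and Antp at none.

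Only 15 genes had every promoter bound, among them CG44774, milt and siz with 4 clusters each. In milt, which couples mitochondria to kinesin, clusters 1, 2, 3 and 4 had 783, 1302, 700 and 158. In siz, an exchange factor for ARF GTPases, they had 1013, 245, 226 and 203, and in CG44774 they had 239, 284, 166 and 616. Among genes with 3 clusters, Dp, the partner of E2F in cell cycle control, had 1989, 304 and 293, and CG7029 had 1498, 178 and 214. The weakest of these clusters were found in 1 or 2 libraries only: that of CG7029 at cluster 2 was among the best peaks of 1 library, and those of siz at clusters 2, 3 and 4 among those of 1, 2 and 2. Another gene started within 1000 bp of all 3 clusters of Dp (26, 871 and 860 bp), of clusters 1 and 3 of CG7029 and of cluster 1 of siz.

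Which promoters were bound, and which of them led, repeated between libraries in part of the genes. The same clusters were bound in all 3 libraries in 274 of 461 genes (59.4%, 54.9 to 63.8), a count that holds genes with none bound in any library; of the 326 genes with a reproducibly bound cluster it was 170 (52.1%, 46.7 to 57.5). The 461 genes had the same clusters bound in 77.4% for libraries 1 and 2, 67.5% for 1 and 3, and 67.7% for 2 and 3. Of the 535 bound clusters, 405 were among the best peaks of all 3 libraries, 83 of 2, 46 of 1 and 1 of none; of the 1173 not bound, 0 were in all 3, which allows a share of up to 0.256% by counting error, 23 were in 2 and 83 in 1. The reproducible set was made from these same libraries, so this recovery is a description. In genes with 2 or more bound clusters the strongest was the same in all 3 libraries in 132 of 157 (84.1%, 78 to 89), and in 92.4% for libraries 1 and 2 alone. Besides Svil, the strongest genes whose leader changed were Ptpmeg, a tyrosine phosphatase, Usp10, a deubiquitinating enzyme, Pfrx, the enzyme that makes and breaks fructose 2,6-bisphosphate, and MEP-1, a zinc finger protein that acts with Mi-2. In Usp10, clusters 1 and 2 had 251 and 303 in library 1, 342 and 294 in library 2, and 273 and 457 in library 3. In MEP-1 they had 270 and 196, 335 and 282, and 291 and 336 in libraries 1, 2 and 3, so that library 3 alone put cluster 2 ahead.

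Summits lay mostly just upstream of the start site, and closer to it at first clusters. The strongest summit had a median position of -84 bp from the nearest start at first clusters (quartiles -158 and -34.5 bp, negative meaning upstream), against -131.5 bp at later ones. It was upstream at 226 of 251 first clusters (90.0%) and 240 of 284 later ones (84.5%), and within 100 bp at 55.0% and 35.9%. Without clusters near another gene the shares within 100 bp were 54.6% of first and 34.9% of later clusters. At bound clusters of other genes the median was -60 bp and 62.8% lay within 100 bp. At the edge of the rule, 32 clusters counted as bound had their nearest summit within the outer 100 bp of the window, and 25 counted as not bound had it at most 100 bp beyond it.

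**Figure D4:**
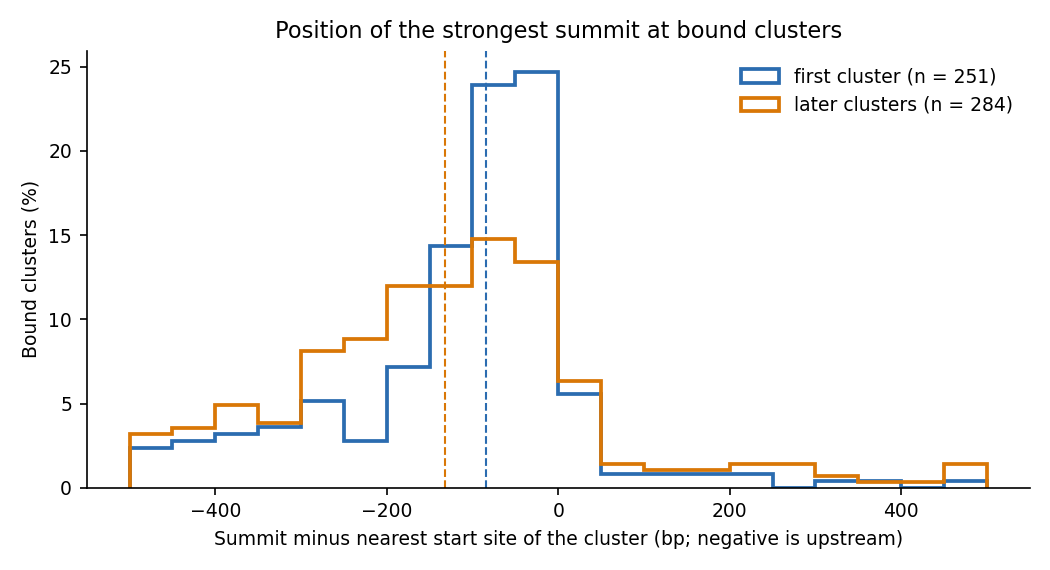
Distance of the strongest summit from the nearest start site of its cluster (x axis, bp, negative is upstream; 50 bp bins), as a share of bound clusters (y axis, %), for 251 first clusters (blue) and 284 later clusters (orange). Dashed lines are the medians, -84 bp for first and -131.5 bp for later clusters; the later clusters have the broader spread.

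Bound first promoters and bound later promoters differed in the sequence motifs they carried. The motifs shown in the sequences above were searched on both strands in the 300 bp from 250 bp before to 50 bp after each cluster's start. The letters of DRE read the same on both strands, a window with several matches counted once, and a TATA box can overlap the end of DRE. DRE was present at 36 of 251 bound first clusters (14.3%, 10.5 to 19.2), against 2 of 210 that were not bound (0.952%), and the Motif 1 core at 40 (15.9%), against 2 (0.952%). At later clusters both were scarce, DRE in 2.46% of the bound and 1.25% of the others and the Motif 1 core in 1.76% and 0.519%. Without clusters near another gene, 10 of 97 bound and 1 of 151 not bound first clusters held DRE, and 15 and 1 held the Motif 1 core. Among later clusters without such a neighbour the order for DRE turned, with 1 of 235 bound (0.426%) and 10 of 894 not bound (1.12%), while the Motif 1 core kept it (1.70% and 0.559%). Over all 16399 clusters 8.18% held DRE and 6.89% the Motif 1 core, and in other genes DRE was at 17.2% of bound and 1.31% of not bound clusters and the Motif 1 core at 15.3% and 0.383%, so the same order stood there. The sign-flip test of bound minus not bound shares over 3 libraries gave an exact p = 0.25 for DRE, the Motif 1 core and the GAGA element at first and at later clusters. Of the first clusters that carry DRE, 36 of 38 were bound (94.7%, 82.7 to 98.5), and of those with the Motif 1 core 40 of 42 (95.2%, 84.2 to 98.7), against 50.8% and 50.4% of the first clusters without the motif. With each library's best peaks the bound share of first clusters with DRE was 94.7% in all 3, and with the Motif 1 core 95.2, 95.2 and 92.9%. At later clusters with DRE 7 of 19 were bound (36.8%, 19.1 to 59.0), against 22.6% of those without it.

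The GAGA element was more frequent at bound than at not bound clusters in later positions. It was found at 96 of 284 bound later clusters (33.8%, 28.5 to 39.5), against 141 of 963 later clusters that were not bound (14.6%). With each library's best peaks the shares were 28.9, 32.4 and 34.5% of bound clusters (mean 31.9 ± 2.79, SD, n = 3), against 16.3, 15.2 and 14.9% of the others (mean 15.5 ± 0.745), so the 2 ranges did not overlap. At first clusters it was present in 12.4% of the bound and 16.2% of the others, the opposite order, and bound minus not bound averaged -5.21 ± 1.06 points over the libraries (SD, n = 3); without clusters near another gene the shares were 17.5% and 17.2%. Over all clusters 7.47% held it, and in other genes 5.46% of bound and 7.01% of not bound clusters. Later clusters with a GAGA element were bound in 96 of 237 cases (40.5%, 34.5 to 46.9), against 188 of 1010 without it (18.6%, 16.3 to 21.1). At later positions the order was the same without clusters near another gene, where 35.3% of bound and 14.4% of not bound later clusters held it.

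**Figure D5:**
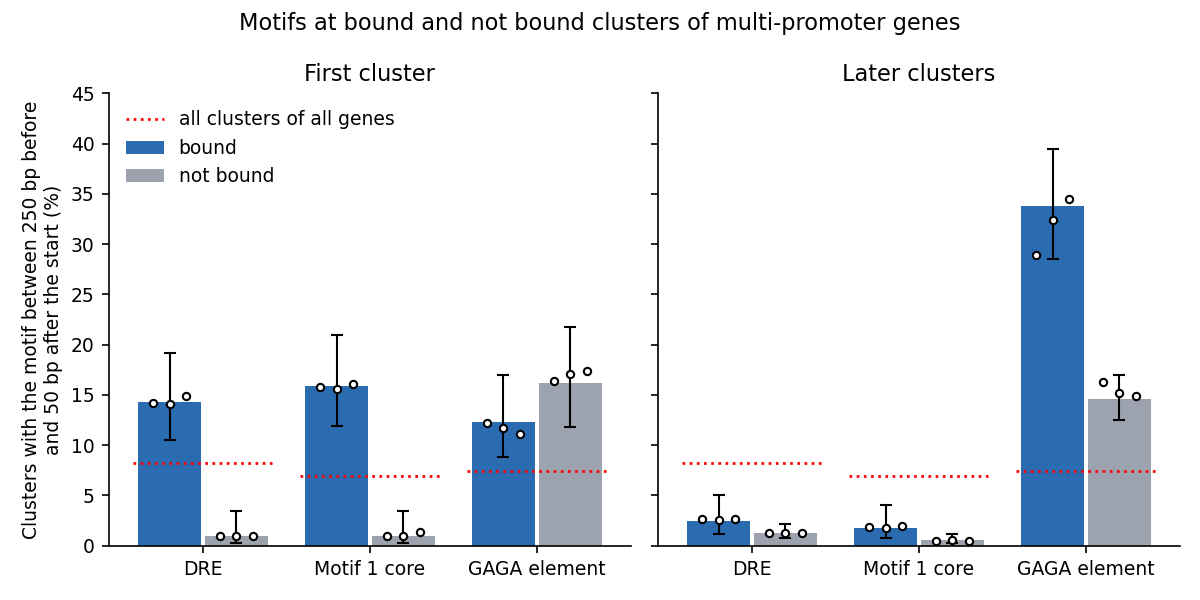
Share of clusters (y axis, %) that hold DRE, the Motif 1 core or a GAGA element between 250 bp before and 50 bp after the start, for bound (blue) and not bound (grey) clusters of multi-promoter genes, with 95% Wilson intervals; open circles repeat the share with each library's best peaks, and dotted lines give the share over all 16399 clusters. DRE and Motif 1 stand out at bound first clusters (14.3 and 15.9%), GAGA elements at bound later clusters (33.8%).

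Bound and not bound clusters of 1 gene were also compared, whatever their position. In the 311 genes with bound and not bound clusters, DRE was more frequent at the bound ones in 41 genes and at the others in 5, the Motif 1 core in 42 and 6, and the GAGA element in 93 and 60; the remaining genes had equal shares, mostly of 0. Among later clusters alone, in the 193 genes with bound and not bound ones, the counts were 7 and 3 for DRE, 5 and 1 for the Motif 1 core and 67 and 28 for the GAGA element. Base composition differed too: the median GC content of the 300 bp was 39.3% at bound first clusters and 46.0% at first clusters that were not bound, but 46.3% at bound and 45.7% at not bound later clusters. Its part in the motif shares was not tested. TATAAA, the TATA box, was present at 38.2% of bound and 21.4% of not bound first clusters, and at 24.3% of bound and 26.8% of not bound later ones, where bound minus not bound was -0.511 ± 1.35 points over the libraries (SD, n = 3; exact sign-flip p = 0.75); these A- and T-rich letters occur in 43.1% of all such windows. CAGGTAG, the site of the early embryonic activator Zelda, was rare everywhere, at 0.797% of bound first and 1.76% of bound later clusters.

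Genes that pattern or time development differed among themselves. In the ecdysone response, 8 of 23 clusters of 5 genes were bound (34.8%, against 31.3% of all clusters of multi-promoter genes). EcR, the ecdysone receptor, had all 3 promoters bound, with 1134, 230 and 272 (257, 404 and 480 in the libraries at cluster 1). The summit at its cluster 1 lay 472 bp from the EcR start and 48 bp from the start of another gene, and cluster 2 was among the best peaks of 2 libraries only. Eip75B, a nuclear receptor induced by the hormone, had none at its 3 most upstream promoters and 889, 316 and 276 at clusters 4, 5 and 6. Hr3 and Blimp-1, both transcription factors of the same cascade, had 1 bound cluster each, with 192 and 239, and another gene starts at the same base as the bound cluster of Hr3. The bound clusters of Hr3 and Blimp-1, and cluster 6 of Eip75B, were each among the best peaks of 2 libraries only. In br, the zinc finger factor broad, none of the 6 clusters was bound and the relaxed pooled list had no summit at any of them.

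Of the Hox genes, Abd-B and Antp have 3 or more clusters. Abd-B had 2 of 6 bound, cluster 4 with 280 (55.9, 75.7 and 151 in the libraries) and cluster 6 with 259 (65.0, 62.5 and 146). Antp had none of 3 bound, with 63.3 and 78.6 in the relaxed pooled list at clusters 2 and 3 and no value at cluster 1. The only gene of the NURF and ISWI list with 3 or more clusters was tou, which encodes a large partner of Iswi. It had 488 at cluster 2 and 168 at cluster 3 of 4. Its other clusters lay near the limits of the rule. Cluster 1 had 154 in the relaxed pooled list, where the lowest signal in the reproducible set was 156. Cluster 4 had its nearest reproducible summit 516 bp away. With the best peaks of libraries 1, 2 and 3, 75, 50 and 75% of the 4 clusters were bound.

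Lists of other gene classes were read beside the 31.3% of all clusters of multi-promoter genes; they are descriptions, and nothing particular to a list follows from them. Transcription factors had 26 of 63 clusters bound (41.3%) in 16 genes. The genes jing and lola, zinc finger and BTB zinc finger factors of neural development, had all 3 bound, though cluster 2 of jing was among the best peaks of 1 library only (23.7, 32.7 and 136 in the libraries), and cnc, the fly relative of Nrf2, had 173, 634 and 1075 at its first 3 of 7 clusters, the first of them among the best peaks of 1 library. None was bound in ab or Sox102F. Signalling genes had 24 of 68 bound (35.3%). Each of the 15 had at least 1, against 326 of all 461 multi-promoter genes (70.7%). Among them were sgg, the fly GSK3 kinase (790 at cluster 1, and 162 and 252 at clusters 6 and 7 of 8), InR, the insulin receptor (931 and 396 at clusters 1 and 3), and CASK, a scaffold kinase (1208 and 262 at clusters 1 and 3). Cluster 6 of sgg was among the best peaks of 1 library only.

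RNA-binding protein genes had 19 of 57 clusters bound (33.3%). The gene pum, of the translational repressor Pumilio, had 775, 437 and 268 at its 3 promoters (224, 256 and 376 in the libraries at cluster 1). Imp had 308, 224 and 195 at clusters 2, 3 and 4 and was not bound at the first, and Rbp9, of the ELAV family, had 295 and 454 at clusters 1 and 2. None was bound in bru1 or Syp. Cytoskeletal and muscle genes had 23 of 56 bound (41.1%). In this list bun had 4 of 6 bound and pyd, the fly ZO-1, 4 of 5 (649, 1449, 202 and 209 at clusters 1, 3, 4 and 5). Another gene's start lay within 1000 bp of cluster 3 of pyd. Cluster 3 of bun and cluster 5 of pyd were among the best peaks of 1 library only, and cluster 4 of pyd among those of 2. None was bound in futsch, a microtubule-associated protein of axons. From the list of housekeeping genes, only CycE, the G1 cyclin, has 3 clusters; it had 512 and 286 at the first pair, both with another gene's start within 1000 bp (149 and 353 bp).

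Genes of ion channels and synapses had the lowest share of the 9 lists. Only 3 of 33 clusters in 9 genes were bound (9.09%), and with each library's best peaks 15.2, 18.2 and 9.09%. None of the 9 first clusters was bound, which allows a share of up to 33.3% by counting error. Another gene started within 1000 bp of 2 of the 9, against 213 of all 461 first clusters in multi-promoter genes. Of those 461, 54.4% were bound, and 39.1% of the ones without such a neighbour. The difference was not tested. The 3 bound clusters were internal: unc-13, a synaptic vesicle priming protein, had 951 at cluster 2 (310, 397 and 228 in the libraries) with another gene's start 358 bp away, Ten-a had 760 at cluster 3 (158, 223 and 372) and cac, a voltage-gated calcium channel, had 190 at cluster 2. Ih and Rdl, a cyclic nucleotide-gated channel and a GABA receptor, had no bound cluster.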

How the data were processed

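The authors deposited peak lists for 3 libraries, for their pooled reads, and a set found reproducible by the irreproducible discovery rate (IDR), all in dm6; dm3 lists were not used here. A control was used for the calls, per the deposited records. The aligner, caller and thresholds were not given in the sources used here. The deposited signal value per peak is a score of unstated scale, so its ratios are descriptive. The deposited −log10 q-value was the same for every IDR peak and ranked nothing. A summit's position adds the offset the authors deposited to the peak's start.

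Start sites came from Ensembl release 115 gene models without transposable elements, on a Release 6 genome whose arms reach past every peak. A library's best peaks are its 9708 highest-scoring ones, as many as the IDR set holds. Motif windows and printed sequences use the cluster's start site with most transcripts, the most upstream of equals. Shares have 95% Wilson intervals, except that the limit given for a count of 0 is 3 divided by the number of clusters. Library differences were tested by an exact two-sided sign-flip permutation. Scripts used Python 3.11.15, numpy 2.4.6, pandas 2.3.3 and scipy 1.17.1, and were tested on planted summits.

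The members and 9 gene lists (267 symbols, 3 matched through synonyms, 2 unmatched) were chosen with earlier results of these data known. Genes named are the 8 with most clusters; all members of the Hox, ecdysone and NURF and ISWI lists; of other lists the 3 with most bound clusters and the first 2 alphabetically with none; the 6 strongest genes with a lone bound cluster at the first and the 6 at a later position, 1 of which is not reported here; 5 with all clusters bound; and 5 whose leader differed between libraries. Alternatives were other windows and merging distances, protein-coding transcripts alone, other peak lists, leaving out clusters near other genes or each library in turn, and, added after seeing the data, not counting summits nearer another gene's start.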

Additional observations from a re-analysis of the deposited data

How the results depend on the processing

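Under 15 alternatives the first cluster stayed ahead of later ones, by 18.3 points (without clusters near another gene's start) to 34.3 points. The share bound was 25.2 and 36.5% with windows of 250 and 1000 bp, 33.1% merging within 2000 bp, 24.1% without clusters near another gene, 14.9% with the 4854 strongest peaks, 59.2% with the relaxed list, 30.4 and 29.4% with the best peaks of libraries 1 and 3, 27.3% without summits nearer another gene's start (added after seeing the data), and 24.7 to 26.6% leaving out a library. The share of lone bound clusters at the first position was 68.1 and 61.0% merging within 500 and 2000 bp, 31.4% without clusters near another gene, 79.5% with those strongest peaks, 61.4% with the relaxed list, 68.2 and 68.4% with libraries 1 and 2, 55.1% without summits nearer another gene's start, and 70.4 to 72.1% leaving out a library. Genes with all clusters bound numbered 8 and 25 with windows of 250 and 1000 bp, 25 without clusters near another gene, 1 with those strongest peaks, 107 with the relaxed list, and 8 to 9 leaving out a library. Genes with none bound numbered 225 without clusters near another gene, 244 with those strongest peaks and 37 with the relaxed list; those with 2 or more 76, 32 and 323, and 103 to 120 leaving out a library; those with exactly 1 numbered 101 with the relaxed list. The strongest cluster was the same in all libraries in 75.0% of 32 genes with those strongest peaks, and in 84.5 to 92.5% leaving out a library, the highest without library 3. Leaving out a library kept only the reproducible peaks with a summit within 200 bp among the best peaks of both other libraries. The reproducible set itself still came from all 3 libraries, and the strongest clusters were then compared between 2 libraries instead of 3. That list can only be shorter, and shorter or longer peak lists lower or raise shares and counts by construction. A gene left with 1 cluster after clusters near another gene were dropped can only count as all or none bound. Beyond these points the cause was not tested. Protein-coding transcripts alone changed nothing, since every transcript of these genes is of that kind. No paired analysis was possible because there was 1 group. With 3 libraries no permutation p can fall below 0.25, and without read totals the depth limit is unknown.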

Other observations

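Reproducible summits also lay away from every promoter of these genes. Of the 326 genes with a bound cluster, 167 (51.2%, 95% Wilson interval 45.8 to 56.6) had a summit in the gene body more than 500 bp from any start, against 537 of 6692 other genes with a bound cluster (8.02%, 7.40 to 8.70). Their median gene lengths were 26.2 kb and 2.67 kb. Among genes 15.4 to 46.0 kb long the shares were 85 of 162 multi-promoter genes (52.5%) and 176 of 416 other genes (42.3%); this length range, the quartiles of the multi-promoter genes, was chosen after the data were seen, and the difference was not tested. Eip75B had 17 summits in its body, 13 of them more than 500 bp from any start, Tlk had 16 with 11 such, pum 12 with 9 such, InR 9 with 8 such and EcR 14 with 5 such. Antp, which had no bound promoter, had 6 summits in its body, all away from starts, whereas br and bru1 had none.

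The share of clusters bound in multi-promoter genes was 30.2% on 2L, 36.4% on 2R, 29.3% on 3L, 31.7% on 3R and 28.4% on X, against 43.7, 46.5, 46.5, 46.8 and 49.7% for other genes on the same arms.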
